A study of Saccharomyces cerevisiae with 6 samples.

Results

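The transcripts described here are those of 10 budding yeast genes that carry the signal of the TORC1 kinase to the transcription of ribosomal genes. They were chosen by name and matched to the systematic identifiers of the count table: TOR1, KOG1, SCH9, SFP1, IFH1, FHL1, CRF1, TOD6, DOT6 and STB3. All 10 were found among the 7127 identifiers, and all 10 passed the filter on low counts, among 6220 genes tested. Polyadenylated RNA was sequenced from whole populations of 1 haploid MATa strain (S288c background) in YPD, a rich medium. Cells of the group mCh* were taken at 0 min and cells of the group mCh- at 180 min after 1 µM beta-estradiol, with 3 libraries each from independent experiments. Every library shares the strain's alleles: trp1::TetO:TRP1 and lys4::LacO:hphNT1, which are operator arrays, the repressor fusions his3::LacR-GFP:HIS3 and TetR-mCherry, the hormone-dependent recombinase leu2::Cre-EBD78:LEU2, and ade2. The septin gene SHS1 is tagged with mCherry between loxP sites, together with the 3' end of CLN2 and the marker NatNT2, and with GFP after the second loxP, so that the hormone lets Cre remove the mCherry part and join GFP to the gene. Time in culture, hormone and reporter allele therefore differ together between the groups and cannot be told apart, and no library measures the share of cells that had lost mCherry.

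TORC1 is a protein kinase complex that is active when nutrients are plentiful and promotes the making of ribosomes. One route runs through the kinase Sch9, which phosphorylates and so inactivates the repressors Dot6, Tod6 and Stb3. Dot6 and Tod6 bind the PAC motif and Stb3 the RRPE motif, both common in front of ribosome assembly genes. Another route acts on Sfp1 and on the pair Fhl1 and Ifh1, which activate ribosomal protein genes, and on Crf1, which can take the place of Ifh1. Much of this control acts on the phosphorylation and location of these proteins, which transcript levels do not measure.

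Total gene counts lay between 25987900 and 34032212 per library, and the members had between 95 counts (CRF1) and 7889 counts (TOR1) in a library. Levels are given as CPM, counts scaled to library sizes adjusted by edgeR's TMM factors. They are shares of the sequenced RNA of a population, in which fewer cells with a transcript and less of it per cell cannot be told apart. The 5 marker genes of MATa cells summed to between 2469 and 2947 CPM at 0 min and to between 1593 and 1850 CPM at 180 min, and 4 of the 5 were called lower (median -0.45), or 2 with library sizes only (median -0.20). The a-factor genes MFA1 and MFA2 were at -1.55 and -0.95 on the log2 scale, and the part of these markers in the results below was not tested. The 4 marker genes of MATalpha cells summed to between 20.4 and 23.6 CPM in the 6 libraries, of which the pheromone genes MF(ALPHA)1 and MF(ALPHA)2 had at most 17 counts in any library. With library sizes alone in place of TMM factors, the median log2 fold change of all tested genes moved from 0.02 to 0.27, and results that depend on this are named below.

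At 180 min the kinase transcript SCH9 and the repressor transcript TOD6 were much lower, and the transcripts of the ribosomal protein gene activators IFH1 and FHL1 were modestly lower. TOR1, KOG1, SFP1, CRF1, DOT6 and STB3 were higher. All 10 genes thus passed the threshold, a Benjamini-Hochberg adjusted p below 0.05 in the quasi-likelihood test of edgeR, 6 of them upward and 4 downward. Across all tested genes 57.7% passed it (29.5% higher and 28.2% lower), so a call as such is common in this comparison. With library sizes only 6 members were called higher and 2 lower (against 48.2% and 15.6% of all genes), and with a trend on coding length and GC content removed 9 were called (against 58.3%). In each of the 10 genes the 3 libraries of one time lay wholly on one side of the 3 of the other, which held for 63.4% of all tested genes. The size of the change sets the members apart from each other: 5.08% of tested genes changed by as much as TOD6 in either direction, 13.6% by as much as CRF1, 17.8% by as much as SCH9, and 55.7% by as much as DOT6.

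**Figure D1:**
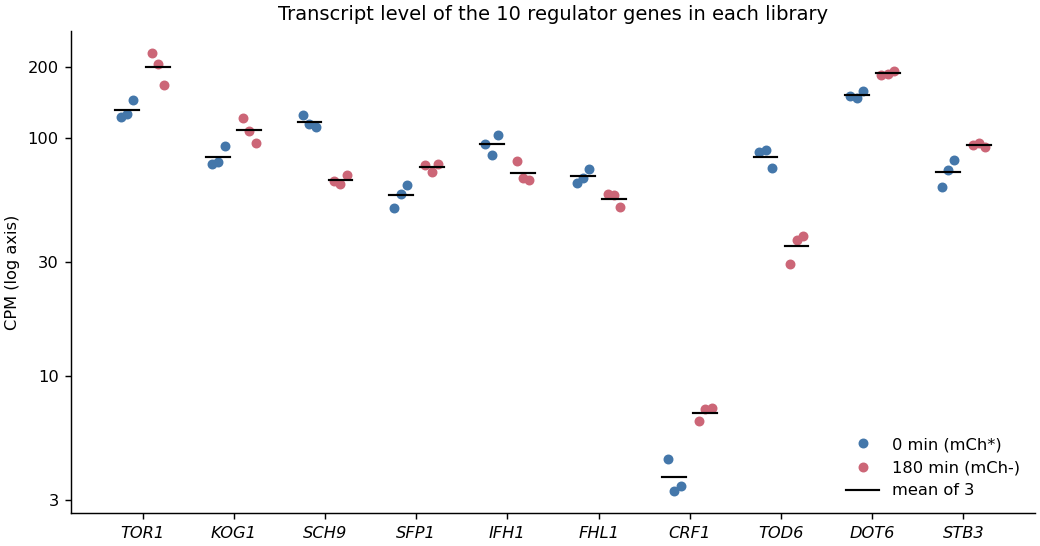
Transcript level of each member in each library, in CPM on a log axis, with 0 min (mCh*) in blue and 180 min (mCh-) in red, a point per library and a line at the mean of 3. In no gene do the libraries of the times overlap, and CRF1 lies far below the other genes, at 3.27 to 7.34 CPM.

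TOR1 (YJR066W, chromosome X, 559416 to 566828 in R64) encodes a catalytic subunit of TORC1. Its level was 123, 126 and 145 CPM in the 0 min libraries and 228, 205 and 167 CPM in the 180 min libraries. The lowest library at 180 min, replicate 3, was closer to the highest at 0 min than to the other libraries of its own time. The log2 fold change was 0.61 ± 0.11 (SE), a 1.52-fold rise (95% interval of the log2 value 0.38 to 0.84, adjusted p = 1.65e-04 in edgeR). KOG1 (YHR186C, chromosome VIII, 475999 to 480672), which encodes the substrate-recruiting subunit of the complex, the counterpart of mammalian raptor, stood at 77.8, 79.4 and 92.8 CPM and then at 122, 107 and 95.4 CPM. The highest library at 0 min and the lowest at 180 min were close to each other. KOG1 rose by 0.38 ± 0.10 (SE) on the log2 scale (adjusted p = 0.00439 in edgeR). Both genes are long, with coding lengths of 7413 and 4674 bases. In this comparison long genes were higher as a group: the 401 tested genes with a coding length above 3000 and up to 5000 bases had a median of 0.29 on the log2 scale, and the 87 longer ones had 0.20. With a trend on coding length and GC content removed, TOR1 was at 0.26 (adjusted p = 0.00417 in edgeR) and KOG1 at 0.10 and no longer called (adjusted p = 0.255).

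SCH9 (YHR205W, chromosome VIII, 509363 to 511837) encodes a protein kinase that resembles mammalian S6 kinase. It had 125, 115 and 111 CPM at 0 min and 66.1, 64.3 and 70.3 CPM at 180 min. The libraries of each time lay close together, and the gap between the times was wide. SCH9 fell by 0.80 ± 0.08 (SE) on the log2 scale, which is 1.75-fold lower (95% interval -0.97 to -0.63, adjusted p = 5.77e-07 in edgeR). It was called in each of the 18 alternative fits, at -0.90 to -0.55.

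SFP1 (YLR403W, chromosome XII, 925568 to 927619) encodes a zinc finger activator of ribosomal protein and ribosome assembly genes that enters the nucleus when TORC1 is active. Its levels were 51.0, 58.1 and 63.7 CPM at 0 min and 77.3, 72.1 and 77.7 CPM at 180 min. The 180 min libraries were tightly grouped, above all of those at 0 min. SFP1 rose by 0.39 ± 0.09 (SE) on the log2 scale (95% interval 0.20 to 0.59, adjusted p = 0.00157 in edgeR).

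FHL1 (YPR104C, chromosome XVI, 733623 to 736433) encodes a forkhead protein that sits at ribosomal protein gene promoters, and IFH1 (YLR223C, chromosome XII, 582233 to 585490) the co-activator it recruits. FHL1 had 64.9, 67.8 and 74.5 CPM at 0 min and 58.2, 57.7 and 51.1 CPM at 180 min. IFH1 had 94.2, 85.3 and 103 CPM at 0 min and 79.9, 68.2 and 66.4 CPM at 180 min. In both genes the groups came near each other without overlapping. FHL1 fell by 0.31 ± 0.09 (SE) and IFH1 by 0.40 ± 0.09 (SE) on the log2 scale (adjusted p = 0.00618 and 0.00205 in edgeR). These calls depended on the scaling: with library sizes only FHL1 was at -0.06 (adjusted p = 0.601) and IFH1 at -0.14 (adjusted p = 0.229), whereas with the length and GC trend removed they were at -0.44 and -0.63 and called.

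CRF1 (YDR223W, chromosome IV, 912099 to 913502) encodes the co-repressor that competes with Ifh1 for Fhl1, a role described in some laboratory strains and not in others. It was scarce, with 4.48, 3.27 and 3.44 CPM at 0 min and 6.43, 7.23 and 7.34 CPM at 180 min, from 95 to 268 counts. The levels at 180 min were all above those at 0 min. CRF1 rose 1.88-fold, by 0.91 ± 0.23 (SE) on the log2 scale (95% interval 0.42 to 1.40, adjusted p = 0.00333 in edgeR), and this interval was the widest among the members.

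TOD6 and DOT6 encode paralogous Myb-like repressors. TOD6 (YBL054W, chromosome II, 117589 to 119166) had 87.2, 88.8 and 75 CPM at 0 min and 29.6, 37.3 and 38.6 CPM at 180 min. Each library at 180 min was far below every library at 0 min. TOD6 fell 2.38-fold, by 1.25 ± 0.11 (SE) on the log2 scale (95% interval -1.48 to -1.02, adjusted p = 1.31e-07 in edgeR), and stayed between -1.33 and -1.0 in the 18 alternative fits. DOT6 (YER088C, chromosome V, 333176 to 335188) had 150, 148 and 158 CPM at 0 min and 185, 187 and 192 CPM at 180 min. It was the most even of the members within each time, and it rose by 0.31 ± 0.07 (SE) on the log2 scale (95% interval 0.15 to 0.47, adjusted p = 0.00228 in edgeR). STB3 (YDR169C, chromosome IV, 792348 to 793889), the gene of the RRPE-binding repressor, had 62.5, 73.3 and 80.9 CPM at 0 min and 93.3, 95.4 and 91.5 CPM at 180 min. Its libraries spread more at 0 min than at 180 min. STB3 rose by 0.37 ± 0.09 (SE) on the log2 scale (95% interval 0.17 to 0.57, adjusted p = 0.00285 in edgeR).

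**Figure D2:**
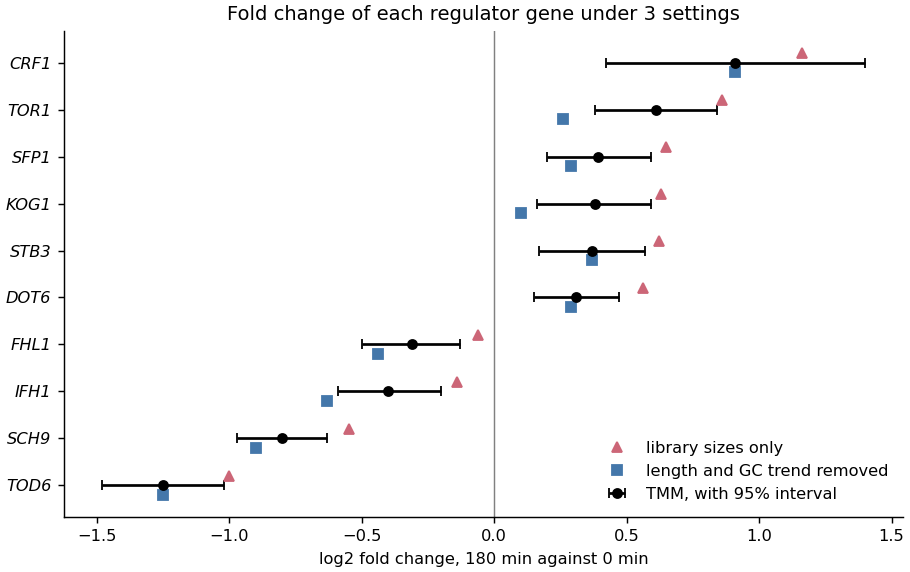
Log2 fold change of each member, 180 min against 0 min, with TMM scaling (black, bars are 95% intervals), with library sizes only (red triangles) and with the length and GC trend removed (blue squares). SCH9 and TOD6 lie well below 0 under each setting, FHL1 (-0.06) and IFH1 (-0.14) come close to 0 with library sizes only, and KOG1 (0.10) does so with the trend removed.

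The promoters of the paralogous repressor genes hold the letters GATGAG, the core of the motif that their own products bind. Binding was not measured. These sites are printed because TOD6, with the larger number of them, fell while DOT6 rose, and their part in either change was not tested. The core of the PAC motif was searched as GATGAG on both strands from 250 bases before to 50 bases after the start codon, using the RefSeq genome R64. The TOD6 promoter held 3 copies, starting 250, 235 and 214 bases before the start codon, and the DOT6 promoter held 1, at 55 bases before it. Of 5988 promoters of the same length, 20.4% held at least 1 copy. None of the other 8 members had a copy in this window. The stretches below are read in the direction of the gene, with the core or its reverse complement in capitals, and the first copy in TOD6 overlaps the start of its first stretch, where its last 3 bases stand in lower case.
TOD6, chrII:117342-117371, plus strand: gagatgcgatgcGATGAGatgcgagaccaa
TOD6, chrII:117363-117392, plus strand: cgagaccaatgcGATGAGacacttttctac
DOT6, chrV:335226-335255, minus strand: agttcatccgacCTCATCgaatagcttccg
The 32 tested genes with at least 3 copies, TOD6 itself among them, included 24 called lower and 0 called higher. Their median on the log2 scale was -0.92. Those with 2 copies numbered 143, of which 107 were called lower and 9 higher (median -0.76). Those with 1 copy numbered 955, of which 388 were called lower and 247 higher (median -0.10). Of all 5701 tested genes with a promoter window, 29.3% were called lower and 31.3% higher. The genes with more copies were also more often genes of ribosome assembly by their annotation (56.2%, 39.9% and 13.2% for at least 3, 2 and 1 copies), and the part of this in the counts was not tested. These counts by copy number include genes that also hold the core of the RRPE motif, and its part was not tested either. Of the 916 genes with the PAC core and no RRPE core, 345 were called lower and 244 higher (median -0.08). No member had the RRPE core AAAAATTTT, which 6.98% of promoters held. The stress response element AGGGG, present in 21.6% of promoters, occurred once each in the windows of TOR1 and SCH9.

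The balance within paralog pairs was compared as a ratio within each library, which needs no scaling factor. Per kb of coding length, TOD6 had 0.741, 0.767 and 0.606 times the counts of DOT6 at 0 min and 0.204, 0.255 and 0.257 times at 180 min. The log2 ratio was lower by 1.56 at 180 min, from -0.51 ± 0.183 to -2.08 ± 0.187 (SD, n = 3, exact two-sided permutation test p = 0.10). CRF1 and IFH1 are paralogs with opposed roles at Fhl1. Per kb, CRF1 had 0.111, 0.0893 and 0.0781 times the counts of IFH1 at 0 min and 0.187, 0.246 and 0.257 times at 180 min. The log2 ratio was higher by 1.31 at 180 min, from -3.45 ± 0.254 to -2.13 ± 0.248 (SD, n = 3, exact permutation p = 0.10), so IFH1 remained the more abundant transcript of the pair in every library. TOR2 encodes the other Tor kinase, which can serve in TORC1 and is needed in TORC2. TOR1 had 1.29, 1.39 and 1.42 times the counts of TOR2 per kb at 0 min and 1.97, 2.08 and 1.68 times at 180 min, a rise of 0.48 in the log2 ratio (exact permutation p = 0.10). In all 3 pairs the libraries of the times did not overlap, and 0.10 is the smallest p that 3 against 3 libraries allow, also after adjustment over the 3 pairs, so none could reach the threshold.

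**Figure D3:**
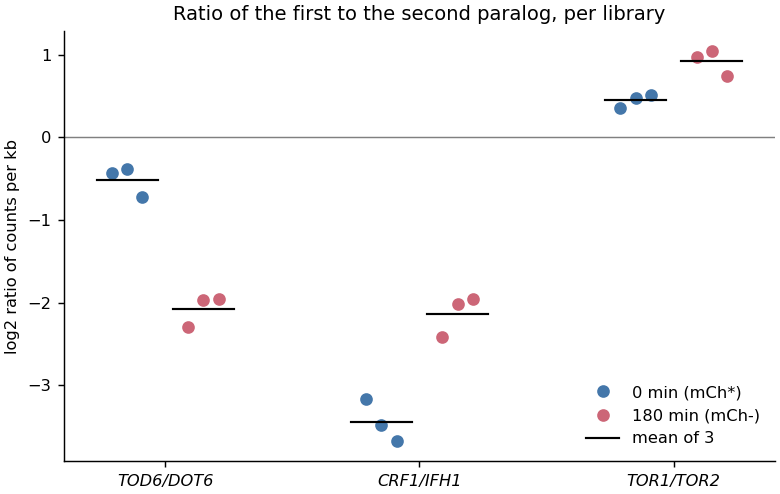
Log2 ratio of counts per kb of the first gene to the second gene of each paralog pair, a point per library, 0 min in blue and 180 min in red, with a line at the mean of 3. The ratio of TOD6 to DOT6 lies lower at 180 min (mean -2.08 against -0.51), and the ratios of CRF1 to IFH1 (-2.13 against -3.45) and of TOR1 to TOR2 (0.93 against 0.45) lie higher.

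Levels of the members were set against each other per kb of coding length. At 0 min DOT6 was highest, at 75.5 CPM per kb (range 73.4 to 78.4), followed by TOD6 at 53.0, SCH9 at 47.2 and STB3 at 46.8 CPM per kb, whose libraries overlapped from each gene to the next. IFH1 (28.9), SFP1 (28.1) and FHL1 (24.6 CPM per kb) formed the next group, again overlapping, and KOG1 and TOR1 were nearly equal at 17.8 and 17.7 CPM per kb. CRF1 was lowest at both times, at 2.66 ± 0.467 and 4.98 ± 0.354 CPM per kb (SD, n = 3). At 180 min the order had changed: DOT6 (93.4), STB3 (60.6) and SFP1 (36.9 CPM per kb) led with no overlap between neighbours. SCH9 (27.0), TOR1 (27.0), KOG1 (23.1), TOD6 (22.3), IFH1 (21.9) and FHL1 (19.8 CPM per kb) followed, each overlapping the next. TOD6 had thus gone from the second place to the seventh, and at 0 min its level was 53.0 ± 4.79 CPM per kb against 22.3 ± 3.07 at 180 min (SD, n = 3).

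The motifs that Tod6, Dot6 and Stb3 bind were then looked up in the promoters of all tested genes, 5701 of which had a promoter window. Genes with both the PAC core and the RRPE core were the most often lower at 180 min. Of 214 such genes 174 were called lower (81.3%) and 12 higher, with a median log2 fold change of -0.84. Of 199 genes with the RRPE core alone 114 were called lower (57.3%), with a median of -0.29. Of 916 genes with the PAC core alone 345 were called lower (37.7%) and 244 higher, with a median of -0.08. Of 4372 genes with neither core 1037 were called lower (23.7%) and 1499 higher, with a median of 0.08. By their annotation 108 of the 214 genes with both cores act in ribosome assembly and 1 encodes a ribosomal protein. Without such genes 68 of the remaining 105 were called lower (64.8%, median -0.50), against 886 of 4198 (21.1%, median 0.10) of those with neither core. With library sizes only, 157 of the 214 genes with both cores were called lower, while the counts fell to 222 of 916 for the PAC core alone and 73 of 199 for the RRPE core alone. Over all 6220 tested genes the count called lower fell as well, from 1754 (28.2%) to 969 (15.6%). Neighbouring genes that are transcribed away from each other can share a promoter: 94 of the 214 windows overlapped the window of another tested gene, so these genes are not independent.

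The sites of the 2 genes with both cores and the smallest p are shown to give the arrangement of the motifs. DBP2, an RNA helicase gene of ribosome assembly, went from 564 ± 25.3 to 126 ± 16.9 CPM and YBL028C, a gene predicted by its annotation to act in ribosome assembly, from 334 ± 20.6 to 103 ± 3.06 CPM (SD, n = 3), with log2 fold changes of -2.16 ± 0.10 and -1.69 ± 0.08 (SE, adjusted p = 8.20e-10 and 9.72e-10 in edgeR). The stretches are read in the direction of each gene in R64, with both cores (on either strand) in capitals.
DBP2, chrXIV:413479-413508, plus strand: cgatgCTCATCgcagAAAATTTTTccttca
YBL028C, chrII:167933-167962, minus strand: agcGATGAGgctctacgAAAAATTTTcgta
In both genes the PAC core lies upstream of the RRPE core and within a few bases of it. Among the 214 genes, the shortest stretch with both cores began at a median of 147 bases before the start codon and spanned a median of 29 bases. In 117 genes it fitted within 30 bases, a limit chosen after seeing the data, and 97 of these were called lower (82.9%, median -0.93), against 77 of the 97 genes with the cores farther apart (79.4%, median -0.73). The genes with the closer cores were more often of ribosome assembly (60.7% against 38.1%). Without ribosomal genes the order of these shares turned: 27 of 46 genes with close cores were called lower (58.7%, median -0.48), against 41 of 59 with the cores farther apart (69.5%, median -0.50).

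Not every gene with these letters moved downward. By the smallest p, the genes named for the PAC core alone were TSA2, a peroxiredoxin gene that rose by 2.34 ± 0.10 (SE), and ATO3, a plasma membrane transporter gene that fell by 2.11 ± 0.09 (SE) on the log2 scale (adjusted p = 6.82e-10 for both in edgeR). For the RRPE core alone they were GSY2, the glycogen synthase gene, which rose by 2.03 ± 0.11 (SE), and RIX1, a gene of large subunit assembly, which fell by 1.17 ± 0.08 (SE) (adjusted p = 1.89e-09 and 3.25e-08 in edgeR). The core in GSY2 began 11 bases before the start codon and that in RIX1 112 bases before it. Just upstream of its RRPE core RIX1 holds GATGA on the other strand, a PAC core without its last base. The search took exact letters alone, so the classes with 1 core or neither can hold such near matches. The motif TCTGCCTA, found at ribosomal protein genes bound by Fhl1 and Ifh1, was rare: 41 tested genes had it, of which 3 encode ribosomal proteins, and 11 were called lower and 15 higher (median 0.01). As 137 ribosomal protein genes had a window, these exact letters miss most of them. The counts therefore do not describe the genes that Fhl1 and Ifh1 bind. The AGGGG element was held by 1249 tested genes, of which 608 were called higher (48.7%) and 226 lower (median 0.24).

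**Figure D4:**
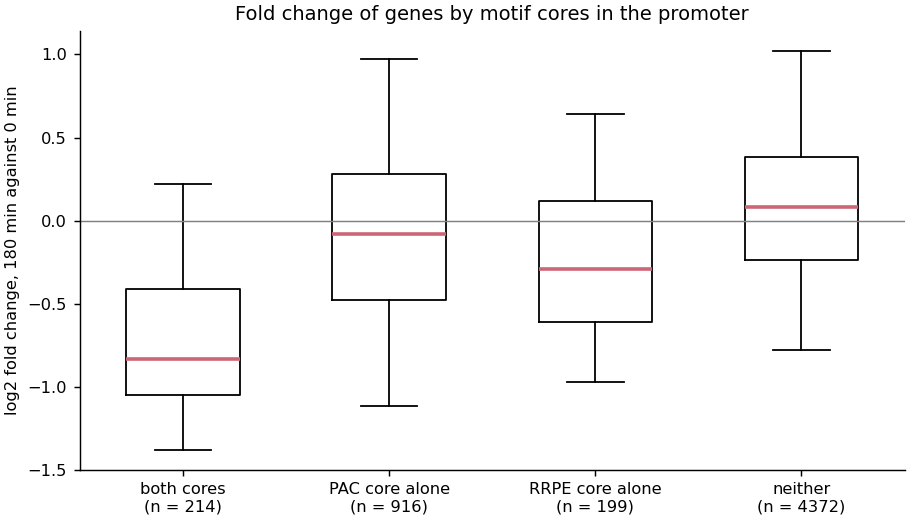
Log2 fold change, 180 min against 0 min, of tested genes grouped by the motif cores in their promoter window; boxes span the middle 50% of genes, the red line is the median and whiskers reach the 5th and 95th percentiles. The median is -0.84 with both cores, -0.08 with the PAC core alone, -0.29 with the RRPE core alone and 0.08 with neither.

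Around the 10 members, 79 other genes of the pathway were described in 7 lists. Of these 47 were called (59.5%), 30 higher and 17 lower, with the same median log2 fold change (0.02) as all tested genes. Across all tested genes 57.7% were called, 29.5% higher and 28.2% lower. With library sizes only 48.2% of all tested genes were called higher and 15.6% lower, and with the length and GC trend removed 58.3% were called. Of the 10 other subunits of TORC1 and TORC2 and their partners 4 were called higher and 0 lower (median 0.20), with 8 and 0 under library sizes only and 3 and 2 with the length and GC trend removed. TSC11 and AVO1, both TORC2 subunits, rose by 0.61 ± 0.10 and 0.60 ± 0.08 (SE) on the log2 scale and SLM1, a TORC2 substrate, by 0.40 ± 0.08 (adjusted p = 6.10e-05, 1.54e-05 and 5.66e-04 in edgeR). TCO89, a TORC1 subunit, rose by 0.29 ± 0.10 (SE, adjusted p = 0.0187 in edgeR). TOR2 (0.13) and LST8 (0.07), a subunit shared by both complexes, were not called with TMM scaling, but with library sizes only both were called higher (0.38 and 0.32), and with the length and GC trend removed TOR2 was called lower (-0.22).

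Upstream of TORC1, the EGO complex and its Rag GTPases tether and activate it at the vacuole, and the SEA complex holds both a part that restrains the GTPases and a part that counters it. In the list of the EGO complex, Rag GTPases and regulators 3 of 10 genes were called higher and 1 lower (median -0.02). That is 40.0% called, against 57.7% of all tested genes. Under library sizes only the counts were 5 and 0 (median 0.23), against 48.2% and 15.6% of all tested genes. EGO4, the paralog of the EGO subunit gene EGO2, whose product has no described part in the complex, rose by 3.03 ± 0.18 (SE) on the log2 scale, from 53.7 ± 10.6 to 440 ± 126 CPM (SD, n = 3, adjusted p = 5.30e-09 in edgeR), while EGO2 itself (-0.14) was not called. VAM6, a vacuolar tethering factor and exchange factor for the Rag GTPase Gtr1, rose by 0.61 ± 0.09 (SE), and LST4, part of a GTPase-activating complex for Gtr2, fell by 0.27 ± 0.08 (SE) (adjusted p = 4.87e-05 and 0.0129 in edgeR). The LST4 call was lost with library sizes only (-0.02) and without mCh* replicate 3 (adjusted p = 0.0510). MEH1, the gene of an EGO subunit, rose by 0.25 ± 0.08 (SE, adjusted p = 0.0189 in edgeR). The Rag GTPase genes GTR1 (-0.17) and GTR2 (-0.02) were not called. Of 8 SEA complex genes 6 were called higher and 0 lower (median 0.34), against 29.5% and 28.2% of all tested genes. The rises were led by IML1, the GTPase-activating subunit, at 0.57 ± 0.10 (SE), NPR2 at 0.41 ± 0.09 and NPR3 at 0.37 ± 0.09 (adjusted p = 1.49e-04, 0.00128 and 0.00245 in edgeR). Also called higher were MTC5 (0.36), SEA4 (0.33) and RTC1 (0.31), close to NPR3 in size. Whether the 2 parts of the complex differ was not tested. With the length and GC trend removed 2 of the 8 were called higher (median 0.13), and NPR3 was no longer called (0.13, adjusted p = 0.245 in edgeR).

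Downstream, the list of other TORC1 and Sch9 effectors and the kinases of Sch9 moved mostly upward. In it 8 of 10 genes were called higher and 0 lower, with a median of 0.56, against 29.5% and 28.2% of all tested genes. Without mCh* replicate 2, 6 were called higher and 1 lower. ATG13, which starts autophagy when TORC1 is inactive, rose by 0.92 ± 0.08 (SE) on the log2 scale, PKH2, a kinase gene whose product phosphorylates Sch9, by 0.62 ± 0.08, and the kinase gene KNS1 by 0.57 ± 0.08 (adjusted p = 2.81e-07, 5.26e-06 and 3.17e-05 in edgeR). RIM15 and NPR1, kinase genes whose products TORC1 signalling holds back and which are named with their values known, were both at 0.65 ± 0.10 (SE) and called. The TORC1 target kinase gene YPK3 (-0.22) was not called (adjusted p = 0.0590 in edgeR), but it was called lower in 9 of the 18 alternative fits, among them the one with the length and GC trend removed (-0.28, adjusted p = 0.0166), and was at 0.03 with library sizes only. Of 14 genes of Tap42 and the phosphatases it binds 6 were called higher and 2 lower (57.1% called, against 57.7% of all tested genes, median 0.14). Under library sizes only the counts were 11 and 0, against 48.2% and 15.6% of all tested genes. With the length and GC trend removed they were 2 and 2. The count called higher was 3 without mCh* replicate 1, mCh* replicate 2 or mCh- replicate 2, and also 3 with TMM factors computed without ribosomal genes. SAP4, a partner of the phosphatase Sit4, rose by 1.40 ± 0.11 (SE) and RTS1, a regulatory subunit of protein phosphatase 2A, by 0.63 ± 0.08 (adjusted p = 4.85e-08 and 1.16e-05 in edgeR). SIT4 (-0.37 ± 0.08 SE) and its partner SAP185 (-0.40 ± 0.08 SE) were called lower (adjusted p = 0.00119 and 6.86e-04 in edgeR), and neither with library sizes only (-0.12 and -0.14).

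Of the 7 lists, that of the ribosomal protein promoter factors was the one with falls and no rises under TMM scaling. It mixes factors at these promoters with partners of Ifh1 (RRP7, UTP22, CKA1, CKA2, CKB1 and CKB2) and of Sfp1 (MRS6). Of the 15 genes in the list 10 were called lower and 0 higher, with a median of -0.27, against 28.2% and 29.5% of all tested genes. Among those called lower were the partners RRP7, UTP22, CKA2, CKB1 and MRS6. Without mCh* replicate 2, 7 were called lower. HMO1, a high mobility group protein at these promoters, fell by 0.44 ± 0.08 (SE) on the log2 scale, RRP7, a ribosome assembly factor that also binds Ifh1 in a complex, by 0.41 ± 0.07, and FPR1, a proline isomerase that is the receptor of rapamycin, by 0.36 ± 0.08 (adjusted p = 3.54e-04, 2.17e-04 and 0.00201 in edgeR). RAP1, the general regulatory factor at these promoters, is named with its value known and was at -0.37 ± 0.10 (SE, adjusted p = 0.00449 in edgeR). With library sizes only 0 of the 15 genes were called lower and 2 higher (median -0.02), against 15.6% and 48.2% of all tested genes. With the length and GC trend removed 7 were called lower (median -0.18), and FPR1 was no longer among them (-0.10, adjusted p = 0.255 in edgeR). The Sin3-Rpd3 large histone deacetylase complex is the one through which Dot6, Tod6 and Stb3 repress. In its list 58.3% of genes were called, near the 57.7% of all tested genes (29.5% higher and 28.2% lower). Of its 12 genes 3 were called higher and 4 lower (median -0.03), with SDS3 (0.50 ± 0.09 SE), SIN3 (0.37 ± 0.09) and RXT3 (0.32 ± 0.08) higher and SAP30 (-0.37 ± 0.08) lower (adjusted p = 2.17e-04, 0.00217, 0.00228 and 7.82e-04 in edgeR). The gene of the catalytic subunit, RPD3 (0.01), was not called. Under library sizes alone 6 of these 12 genes were called higher and 0 lower, against 48.2% and 15.6% of all tested genes. With the length and GC trend removed 2 were called higher and 5 lower, and SIN3 was no longer called (0.14, adjusted p = 0.0893 in edgeR).

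**Figure D5:**
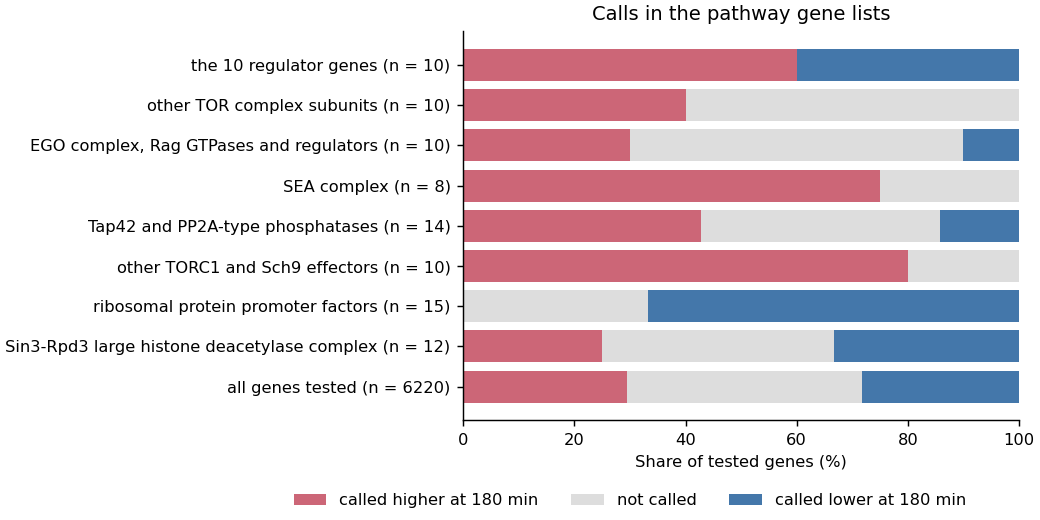
Share of tested genes called higher (red), called lower (blue) or not called (grey) at 180 min in each list, with the number tested in brackets and all 6220 tested genes at the bottom. The list of other TORC1 and Sch9 effectors has 8 of 10 genes called higher. That of ribosomal protein promoter factors, which includes partners of Ifh1 and Sfp1, has 10 of 15 called lower. The latter count is 0 with library sizes only.

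The genes whose pattern over the 6 libraries was most like that of a member were found by the root mean square difference of log2 CPM, centred on each gene's mean, among the 5735 genes that averaged 50 or more counts. As the libraries form 2 groups, this measure mostly reads the size of the change. For TOR1 the nearest gene was TSC11 (0.0411 log2 units, log2 fold change 0.61), which encodes a subunit of the other Tor complex, followed by SNT2 (0.0473). For SCH9 it was RPL26A, a ribosomal protein gene (0.0205, log2 fold change -0.82), followed by PGA2 (0.0295). For TOD6 the nearest were UPA2, a putative methyltransferase gene (0.0563), and REI1, a gene of large subunit assembly (0.0614), with log2 fold changes of -1.21 and -1.15. The nearest to DOT6 were GNT1 (0.0173) and TSC13 (0.0242), and to STB3 STE23 (0.0213) and MLH3 (0.0384). For KOG1 they were RRI1 (0.0242) and SSD1 (0.0282), for SFP1 CBS2 (0.0184) and PEX28 (0.0402), for IFH1 SPR6 (0.0205) and AMN1 (0.0348), and for FHL1 TRM732 (0.0395) and STE18 (0.0405). CRF1 had the most distant neighbours, AIM19 (0.0852) and SDH5 (0.0905), and no member was among the 2 nearest of another.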

How the data were processed

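The authors deposited counts, whole-number reads per gene that are not normalized, in 1 table of 6 libraries. The submitters' processing notes name STAR 2.5.3a, HTSeq 0.6.1p1, cutadapt 1.10 and bcl2fastq 2.20.0.422, and the builds sacCer3 and R64. Per the labels' protocols the libraries were polyA-selected and stranded. Whether counting used strand, and how reads with several matches were treated, is not given in the sources used here. Names, coding lengths and promoters came from the RefSeq annotation and genome R64, which matched 6047 identifiers by locus tag and 41 by symbol and left 1039 (0.469% of counts) unmatched. No member overlaps another gene that matched.

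Groups came from the sample titles. edgeR 4.0.16 in R 4.3.3 was run with TMM factors, its default filter by group (907 genes removed), the quasi-likelihood test and Benjamini-Hochberg adjustment over 6220 genes, called below 0.05. Errors and intervals came from that fit. The fit was tested on simulated data. Paralog ratios had 0.5 counts added. Alternatives included DESeq2 1.42.0, limma-voom (limma 3.58.1) and a loess trend on coding length and GC content per library (span 0.5). Same-numbered libraries did not deviate together, which cannot show whether the experiments were paired.

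The members, gene lists, motifs and tests were chosen with earlier results of these data known. Named genes are the members, up to 3 called genes of each list with the smallest adjusted p, called genes of each list's minority direction, the 2 called genes of each motif class with the smallest p, and the 2 nearest genes of each member. Other genes named with a value that was not called, and RAP1, RIM15 and NPR1, were chosen after their values were seen. So were TCO89, MEH1, MTC5, SEA4, RTC1, UTP22, MRS6 and the CKA and CKB genes. Lists were not tested as sets. Drawing used matplotlib 3.10.9.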

Additional observations from a re-analysis of the deposited data

How the results depend on the processing

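Over 18 alternative fits of each of the 10 members, 176 of 180 values kept their direction and side of the threshold, and no member changed sign. With library sizes only, 2 members were called lower in place of 4 (IFH1 -0.14, FHL1 -0.06), the calls over all genes were 2996 higher and 969 lower in place of 1833 and 1754, and the genes called lower numbered 222 with the PAC core alone and 73 with the RRPE core alone. KOG1 was at 0.10 with the length and GC trend removed and also with that trend and the replicate block together (adjusted p = 0.255 and 0.301 in edgeR). The cause was not tested. Without ribosomal genes, which leaves fewer genes to count, 68 genes with both cores were called lower in place of 174. Counting genes with both cores within 30 bases, a setting added after seeing the data, gave 97 called lower. At an adjusted p below 0.01 the members were again 6 higher and 4 lower. Leaving out 1 library at a time changed no member's call. In the pathway lists, the number of phosphatase genes called higher then ranged from 3 to 6 and that of effector genes from 6 to 8. In the list of ribosomal protein promoter factors, which includes partners of Ifh1 and Sfp1, the number called lower ranged from 7 to 10. TOR2, which was not called, turned to -0.22 with the length and GC trend removed, alone or with the replicate block, and LST8, also not called, ranged from -0.04 to 0.15 with 1 library left out, turning negative without mCh* replicate 3 (-0.01) or mCh- replicate 3 (-0.04).

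The correlations of the deviations of same-numbered libraries from their group means, over 6220 genes, were -0.0197, -0.0328 and -0.179. Those of libraries with different numbers lay between -0.0729 and 0.105. Deviations from a mean of 3 libraries are tied to each other, so these values cannot show whether the experiments were paired. With the replicate block all 10 members were still called, and the differences in the paralog ratios remained -1.56, 1.31 and 0.48, with an exact sign-flip p of 0.250, the smallest that 3 pairs allow.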
